A study of Mus musculus with 8 samples.

Results

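The baseline transcriptome of wild-type mouse rib chondrocytes was described from the 4 wild-type libraries of a study of the *Mir140* locus, out of 8 libraries in the series. The members were chosen by label only: each wild-type sample entered once, and each gene identifier was counted once within a library. The wild-type mice had a C57BL/6J background and carried an intact *Mir140* locus, they were 7 days old, and their rib (costal) cartilage was released into single cells with collagenase. The other 4 libraries came from mice of the same background and age in which the locus had been deleted by CRISPR/Cas9, and they were not used here. The labels do not say whether a library came from a single mouse or from pooled mice, so the spread between the 4 libraries may be partly technical. Polyadenylated RNA was sequenced, and levels are given as TPM, a measure of transcript abundance. Reads are divided by transcript length and then scaled so that every library sums to 1000000. Levels of different genes can therefore be set side by side, except for very short genes and genes that share sequence, as described below.

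Rib cartilage at this age is a hyaline cartilage that grows. Chondrocytes secrete a matrix of type II, IX and XI collagen fibrils filled with aggrecan, a proteoglycan whose charged side chains hold water. The cells pass from a resting reserve through columns of dividing cells to hypertrophic cells, which make type X collagen before bone replaces them, and the tissue is wrapped in perichondrium, a fibrous sheath rich in type I collagen. Cartilage itself has no blood vessels. A digest of dissected ribs can hold all of these cells together with blood, muscle and marrow cells, and in bulk RNA fewer cells of a type and less RNA per cell cannot be told apart.

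Between 17128 and 17950 genes reached 0.5 TPM in a library, and 14862 did so in all 4. Of these, 12252 were protein-coding, 56.3% of the protein-coding genes listed. At 100 TPM the number common to all 4 libraries was 854, and at 1000 TPM it was 119. TPM values do not carry the read depth, for which the labels give only a lower limit of 12000000 reads per library. Wild-type replicate 1 stood somewhat apart from the other three. Among 7950 protein-coding genes with a mean of 5 TPM or more, 526 were at least 0.5 lower on the log2 scale in replicate 1 than in each other library, against 58 to 120 genes for the other replicates. Another 123 genes were higher in replicate 1 by the same margin, against 85 to 99.

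The label was checked against 6 markers of cartilage, all of which exceeded 10 TPM in every library. *Col2a1*, which encodes the chain of type II collagen and lies at chr15:97975602-98004695 on the minus strand, was the most abundant gene of all at 61630.1, 61442, 47894 and 60174 TPM. Replicate 3 was the low one, and the mean was 57785 ± 6626 TPM (SD, n = 4, as for all means given here). *Col9a1*, a chain of the type IX collagen that decorates those fibrils, stood at 3448, 3212, 2968 and 3329.7 TPM. *Comp*, a pentameric glycoprotein that bridges matrix molecules, stood at 1682, 2066, 1600.4 and 1838 TPM. Both varied little, with coefficients of variation of 6.33% and 11.4%. *Acan*, the aggrecan core protein, was measured at 447, 681, 491 and 590.3 TPM. *Sox9*, the transcription factor that sets the chondrocyte fate, was measured at 134, 175, 129 and 147 TPM. *Matn1*, the matrilin of mature chondrocytes, was the lowest and the least even of the 6, at 14.7, 48.8, 18.3 and 27.2 TPM. Replicate 2 was the highest library for *Acan*, *Sox9*, *Comp* and *Matn1*. Summed over the 6 genes the level was 67355, 67625, 53100.1 and 66106 TPM, again lowest in replicate 3.

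The most abundant genes took a large part of each library. The 10 genes with the highest mean held 20.6% ± 0.389 of TPM, the first 100 held 48.9% ± 0.686 and the first 1000 held 78.4% ± 0.648. Among the first 30, 15 were protein-coding. *Sparc*, the collagen-binding glycoprotein osteonectin, followed *Col2a1* among genes of ordinary length at 20171, 23651, 19409.7 and 21481 TPM. *Bgn*, the small leucine-rich proteoglycan biglycan, stood at 7309, 8327, 6738 and 7698 TPM. *Col11a2*, a chain of the type XI collagen at the core of cartilage fibrils, stood at 5685, 5760.2, 4746 and 5739 TPM. The 3 matrix genes differed by at most 1.24-fold between the highest and the lowest library. *Actb*, cytoskeletal beta-actin, was at 5940.2, 8282, 6861 and 8563 TPM, lowest in replicate 1. *Eef1a1*, the elongation factor that delivers aminoacyl-tRNA to the ribosome, was at 6872, 7794, 7472 and 7250.1 TPM. *Hsp90b1* and *Hspa5*, chaperones that fold secreted proteins in the endoplasmic reticulum, had means of 4587 ± 621 and 4322 ± 299 TPM. *Rpl13a*, *Rps15a* and *Tpt1*, which serve translation and growth, had means of 7571 ± 717, 5881 ± 273 and 5165 ± 381 TPM. *Ifrd1*, a transcriptional co-regulator, and *Ptp4a1*, a phosphatase listed under 2 identifiers of which the abundant one is given here, had means of 4775 ± 405 and 4738 ± 476 TPM. For *Ptp4a1*, 70.3% of its words, that is, of the stretches of 31 bases in its transcripts, also occurred in another listed identifier, so its level is uncertain. The share was 49.8% for *Eef1a1*, 28.3% for *Rpl13a*, 23.5% for *Actb* and 19.9% for *Tpt1*, whose levels carry this limit in part.

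**Figure D1:**
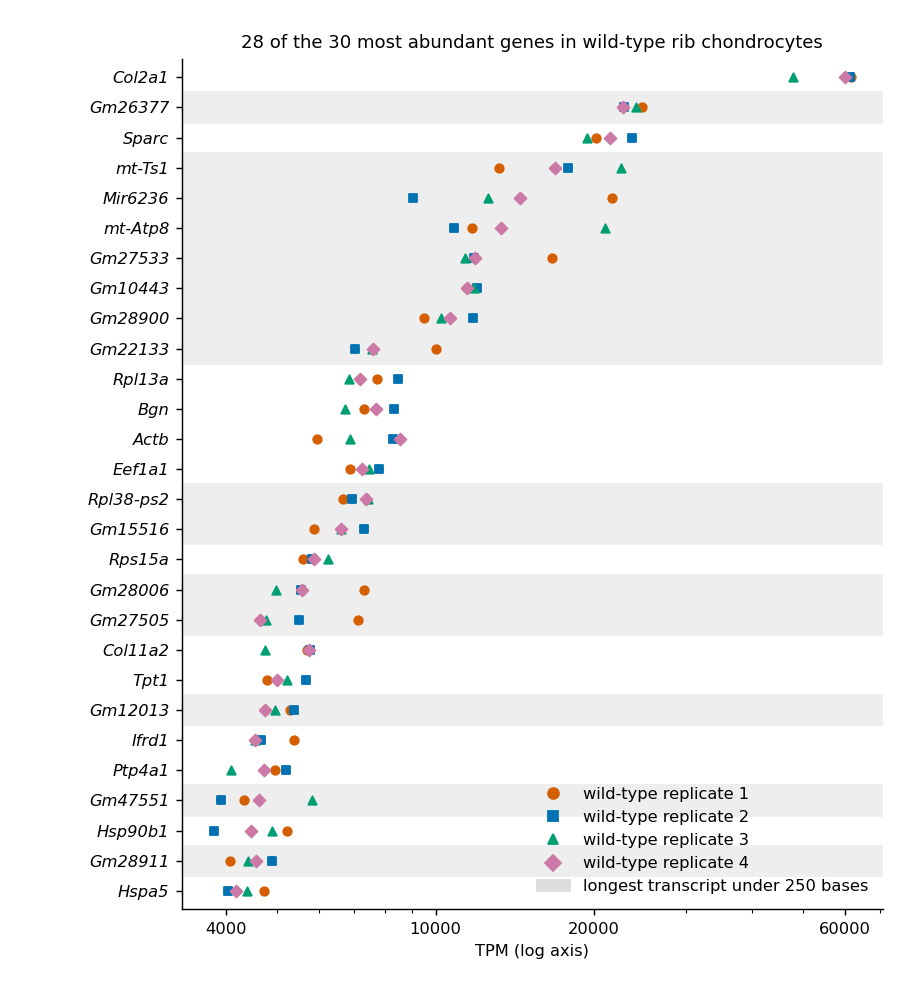
Level in TPM (log axis) of 28 of the 30 genes with the highest mean, with 1 point for each of the 4 wild-type libraries and grey bands for genes whose longest transcript is under 250 bases. *Col2a1* stood alone at the top, and *Mir6236*, *mt-Atp8* and *mt-Ts1* had the widest spacing between libraries.

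Of the 30, 16 were genes whose longest transcript is under 250 bases, *mt-Atp8* among them, and 13 of these had at least 50% of their 31-base words in the transcripts of 1 longer gene. The sequences of some of the most abundant are shown because they carry the point: a read from the long gene can be assigned to the short one. They are given 5′ to 3′ on the strand of the short gene, from GENCODE M21 transcripts on GRCm38, with no part set in capitals because all of each stretch lies within the longer transcript.
Gm10443, all 210 bases, within *Rps28*: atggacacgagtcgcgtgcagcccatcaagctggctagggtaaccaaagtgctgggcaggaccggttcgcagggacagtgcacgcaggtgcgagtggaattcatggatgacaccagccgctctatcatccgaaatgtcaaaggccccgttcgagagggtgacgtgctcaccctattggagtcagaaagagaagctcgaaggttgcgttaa
Gm27533, all 152 bases, within *Neat1*: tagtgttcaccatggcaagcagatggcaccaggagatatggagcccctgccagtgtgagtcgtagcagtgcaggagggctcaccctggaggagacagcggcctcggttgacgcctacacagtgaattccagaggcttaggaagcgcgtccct
Gm26377, the first 30 of 108 bases, within *Eef1a1*: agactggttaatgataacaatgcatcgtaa
*Gm10443*, annotated as a processed pseudogene at chr6:86334031-86334240 on the plus strand, is identical to bases 21 to 230 of a 437-base transcript of *Rps28*, a protein of the small ribosomal subunit. It was listed at 11469, 11998, 11827 and 11451 TPM, 27.2 times the mean of *Rps28*. *Gm26377*, annotated as a miRNA gene, lies inside *Eef1a1* at chr9:78478528-78478635 on the minus strand, on the same strand, and was listed at 24719, 22784, 24034 and 22696 TPM, 3.21 times *Eef1a1*. *Gm27533*, *Gm28006* and *Gm27505*, annotated as misc_RNA, lie within *Neat1*, the long non-coding RNA that builds nuclear paraspeckles, and together were listed at 31074, 22909, 21095 and 22104 TPM. Replicate 1 was the highest for this group, as it was for *Neat1* at 1109.9, 816, 758 and 806 TPM. *Gm22133* shared all its words with *Ftl1*, the ferritin light chain, *Gm47551* shared 63.7% with *Map4*, a microtubule-associated protein, and 5 further short pseudogenes shared words with *Rpl21*, *Rpl38*, *Rpl39*, *Rpl8* and *Rpl9*. Levels of all these short models are uncertain and are not read as separate genes here. Reads of a longer partner that were assigned to a short model are missing from the partner. Levels of partners such as *Rps28*, *Neat1* and *Eef1a1* may therefore be too low, by an amount that was not tested.

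A few short genes shared almost nothing with other annotated transcripts. *Mir6236*, at chr9:110281287-110281409 on the plus strand, had no 31-base word in common with any other listed transcript and was the least even of the 30, at 21685, 9063, 12553 and 14494 TPM. Replicate 1 was 2.39 times replicate 2. Its mature product in RefSeq (GRCm38.p6) lies at chr9:110281353-110281371 on the plus strand and reads as follows, with the seed, bases 2 to 8, in capitals.
mmu-miR-6236: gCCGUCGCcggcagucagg
The libraries were made from polyadenylated RNA, so this value counts fragments that match the 123-base annotated gene and not the mature molecule. The word search covered annotated transcripts only, so a match of *Mir6236* to sequence outside them was not tested. *CT010467.1*, annotated as ribosomal RNA, had the same order of libraries, at 758, 372, 467 and 563 TPM. So had *Gm42418*, a long non-coding RNA gene that overlaps it on the other strand, at 1830, 837, 1146 and 1318 TPM. Whether ribosomal RNA fragments add to the *Mir6236* value was not tested. *mt-Ts1*, a mitochondrial transfer RNA gene for serine, was listed at 13189.5, 17883, 22489 and 16858 TPM. The weight that TPM gives to very short genes could be read from the values: among genes of 40 to 75 bases, 85.0% to 89.0% of the values above 0.5 TPM were whole multiples of 1 step, within 0.02 of a step, so 1 step may be read as the worth of 1 assigned read. The step was 17.8, 15.7, 16.8 and 21.5 TPM in replicates 1 to 4. On this scale *mt-Ts1* stood at 739, 1139, 1335 and 783 steps, while 49 to 67 of the 99 to 127 short genes above 0.5 TPM in a library stood at 1 or 2 steps. *Mir140* itself, a 70-base gene at chr8:107551244-107551313 on the plus strand, was listed at 0 in all 4 libraries, so not at 1 step in any of them. *Wwp2*, the ubiquitin ligase gene whose intron holds *Mir140*, was listed at 353, 459, 332 and 378 TPM.

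Protein-coding genes held 65.1% to 66.8% of TPM. Pseudogenes held 15.97% to 17.2%, genes annotated as miRNA 6.01% to 7.91%, and long non-coding RNA 3.49% to 3.75%. Genes with a longest transcript under 200 bases made up 21.5% ± 0.892 of TPM. To see how much of this rested on the division by length, each value was also multiplied by the length of the gene's longest transcript. The product is only a rough guide to a share of sequenced bases. Genes of 40 to 75 bases mostly shared 1 step whatever their length, so their TPM were not divided by the annotated length. On that scale protein-coding genes held 92.6% ± 0.309, pseudogenes 2.24% ± 0.101, miRNA genes 0.341% ± 0.0474 and the short genes 1.25% ± 0.0721. With the median transcript length of each gene in place of the longest, protein-coding genes held 89.2%.

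**Figure D2:**
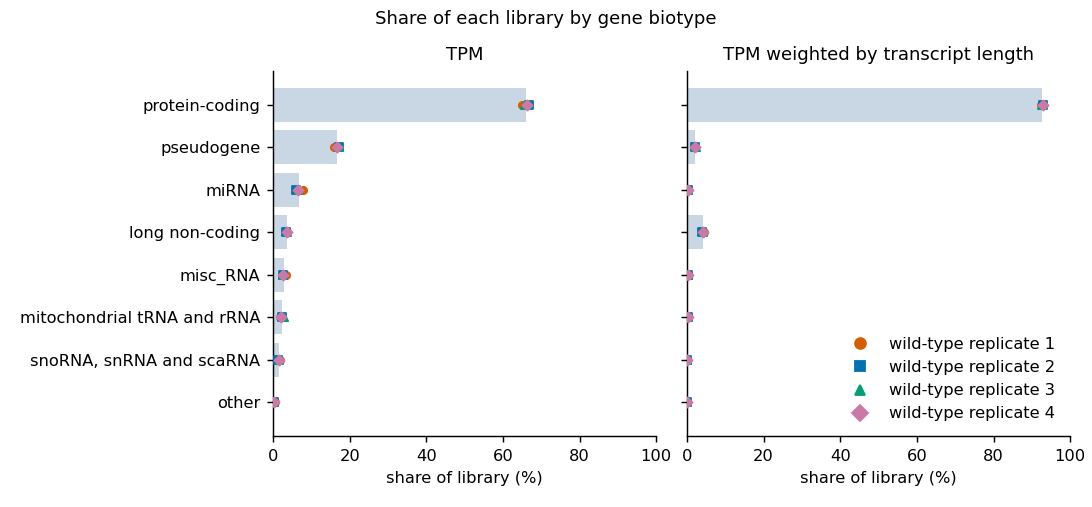
Share of each library (%) by gene biotype, as bars for the mean of 4 wild-type libraries and points for each library, on TPM (left) and on TPM multiplied by the longest transcript length (right). The protein-coding share was 65.9% on the left and 92.6% on the right, and the pseudogene share fell from 16.7% to 2.24%.

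Among gene classes, the 44 collagen genes held 8.41% ± 0.716 of TPM and 19.5% ± 1.2996 of length-weighted TPM. The lowest library for the collagens was replicate 3, at 7.35%. The 84 cytosolic ribosomal protein genes held 7.88% ± 0.395, and the 37 mitochondrially encoded genes 5.24% ± 1.24. The ribosomal protein share leaves out the short pseudogene models whose words lie in these genes, so it may be too low. Replicate 3 was the highest for mitochondrial genes at 6.99% and replicate 1 the lowest at 4.06%. *mt-Atp8*, a subunit of the mitochondrial ATP synthase encoded in the organelle, was at 11718, 10842, 21037 and 13332 TPM, again highest in replicate 3. Histone genes held 0.506% ± 0.0534. Most histone messages lack a poly(A) tail, so libraries of this kind undercount those messages. The class also takes in variants such as *H3f3b*, and the share was not split by kind of histone gene. Haemoglobin genes held 0.111% ± 0.0560.

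All 17 members of the wider list of cartilage genes exceeded 1 TPM in every library. Their summed level was 24859, 24488, 22371 and 25171 TPM, and the median SD of log2(TPM + 1) over the list was 0.135, near the 0.146 of protein-coding genes at 500 to 1000 TPM, the level of the list's median gene. The 3 chains of type IX collagen were nearly equal: *Col9a1*, *Col9a2* and *Col9a3* had means of 3239 ± 205, 3297 ± 189 and 3219.8 ± 254 TPM. The ratio of *Col9a1* to *Col9a2* was 0.983 ± 0.0330, and that of *Col9a1* to *Col9a3* was 1.01 ± 0.0406. The type IX molecule joins all of these chains. *Col11a1* had a mean of 3110.5 ± 177 TPM, below the 5483 ± 492 TPM of *Col11a2*. *Cnmd*, the antiangiogenic membrane protein chondromodulin, was the steadiest of the list, at 2851, 2731, 2755 and 2803 TPM. *Mia*, a small secreted cartilage protein, had a mean of 1978 ± 148 TPM. *Snorc*, a transmembrane proteoglycan of cartilage, had 951 ± 131 TPM, and *Hapln1*, the link protein that fixes aggrecan to hyaluronan, had 358 ± 16.1 TPM. *Sox6* and *Sox5*, partners of SOX9 at the *Col2a1* enhancer, were lower and less even, at 49.9, 90.6, 88.2 and 92.0 TPM for *Sox6* and 33.2, 48.8, 51.6 and 47.4 TPM for *Sox5*. For both, replicate 1 was below the other three. *Epyc*, *Scrg1*, *Matn3* and *Cytl1*, secreted products of growth plate cells, lay between 174 and 255 TPM in the mean. *Fn1*, fibronectin, a matrix protein outside the list, was also abundant, with a mean of 2839 ± 452 TPM.

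Markers of each zone of the growth plate were detected, at very different levels. For the resting zone, 9 of 11 genes exceeded 1 TPM in all libraries, and the summed level was 1988, 1984, 1949 and 2203 TPM. Most of that came from *Clec3a*, a secreted cartilage lectin, at 827, 905, 834 and 1000.1 TPM, *Ucma*, a Gla protein of the upper zone, at 819, 653, 718 and 750.0 TPM, and *Wif1*, a secreted Wnt inhibitor, at 292, 343, 325 and 371 TPM. *Clec3a* and *Ucma* are members of the wider cartilage list too. *Pthlh*, the ligand made by reserve cells that delays hypertrophy, was low at 1.55, 2.30, 1.57 and 1.84 TPM. The transcription factors *Foxa2* and *Barx1* did not reach 1 TPM in any library. For the proliferating zone, all 10 genes exceeded 1 TPM, but the cell cycle genes were low. *Mki67*, a marker of cycling cells, was at 6.36, 3.33, 3.91 and 3.29 TPM, and *Top2a*, a topoisomerase of dividing cells, at 12.5, 6.74, 10.8 and 7.42 TPM. *Pcna*, the replication clamp, was at 94.1, 75.6, 82.8 and 85.1 TPM, and *Fgfr3*, a receptor that restrains chondrocyte division, at 85.5, 95.9, 60.4 and 78.2 TPM. Of the 10 genes, 8 were highest in replicate 1, where the background over all genes with a mean of 1 TPM or more was 23.1%. The 7 members with both replicates 1 and 3 above replicates 2 and 4 compare with a background of 14.2%; this pattern was noticed after the values were seen.

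The prehypertrophic list summed to 247, 377, 312 and 318 TPM. This sum was lowest in replicate 1, but most of it was *Fgfr1*. Of the 9 members with a mean of 1 TPM or more, 3 were lowest in replicate 1, where the background was 41.2%. *Fgfr1*, a receptor linked with the approach of hypertrophy, led the prehypertrophic list at 192, 318, 251 and 253 TPM. *Pth1r*, the receptor for *Pthlh* and parathyroid hormone, was at 9.94, 11.5, 9.17 and 10.8 TPM. *Ihh*, the hedgehog ligand of prehypertrophic cells, was below 1 TPM throughout, at 0.695, 0.456, 0.158 and 0.461 TPM. Its targets were above it: *Ptch1*, the hedgehog receptor, was at 5.75, 5.40, 8.61 and 12.0 TPM and *Gli1*, the hedgehog-responsive transcription factor, at 5.84, 4.57, 5.80 and 5.03 TPM. *Runx2*, the factor that drives chondrocyte maturation, had a mean of 14.3 ± 1.71 TPM and *Mef2c* one of 9.11 ± 1.35 TPM. The hypertrophic list summed to 407, 640.1, 529.7 and 578 TPM, and this sum too was lowest in replicate 1. Of the 8 members with a mean of 1 TPM or more, 4 were lowest in replicate 1, against the background of 41.2%. *Col10a1*, the collagen of hypertrophic cells, had the largest SD of log2(TPM + 1) of all zone markers, 1.11, at 25.2, 167, 61.8 and 85.9 TPM. Replicate 2 was 6.61 times replicate 1. *Vegfa*, which attracts vessels to hypertrophic cartilage, was at 186, 207, 187 and 230.0 TPM, and *Spp1*, osteopontin, at 96.98, 137, 165 and 164 TPM. *Mmp13*, the collagenase of late hypertrophic cells, was at 15.8, 15.5, 19.5 and 20.97 TPM. *Alpl*, alkaline phosphatase of mineralising cells, stood out in replicate 3, at 6.49, 5.76, 16.4 and 4.78 TPM. *Ibsp* and *Dmp1*, proteins of mineralised matrix, stayed below 1 TPM in every library, and *Ibsp* had a larger ratio between its highest and lowest library, 8.64, than *Col10a1*. The ratio of *Col2a1* to *Col10a1* was 2443, 368, 775 and 701.

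The promoter of *Col10a1* is shown because this gene had the largest SD of log2(TPM + 1) among the zone markers. The stretch runs from 250 bases before to 50 bases after the start of transcription, at chr10:34389731-34390030 on the plus strand (RefSeq, GRCm38.p6), and capitals mark TATAAA, which was searched on both strands.
Col10a1 promoter: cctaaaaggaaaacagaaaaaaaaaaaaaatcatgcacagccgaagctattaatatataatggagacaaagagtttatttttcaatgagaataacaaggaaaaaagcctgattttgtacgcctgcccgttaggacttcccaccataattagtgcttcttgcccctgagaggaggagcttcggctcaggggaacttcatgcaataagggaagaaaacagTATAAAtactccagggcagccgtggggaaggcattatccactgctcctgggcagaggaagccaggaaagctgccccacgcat
The match began at position -32 relative to the start site. TATAAA occurred in 13.6% of all 32851 promoters of this length and in 16.5% of the 85 promoters listed for the 100 most abundant protein-coding genes.

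The superficial zone of joint cartilage was represented by *Prg4*, the lubricant lubricin, at 33.5, 60.4, 44.4 and 38.2 TPM, and by *Thbs4*, a thrombospondin of tendon and joint surface, at 100.02, 83.3, 163 and 51.0 TPM. *Gdf5*, the joint-forming signal, and *Erg*, a factor of articular cells, had means of 4.64 ± 0.827 and 7.35 ± 1.37 TPM. The summed level of the 7 genes was highest in replicate 3 at 273 TPM and lowest in replicate 4 at 125 TPM. *Cilp*, a protein of the intermediate layer of cartilage, was at 17.1, 11.1, 26.6 and 8.28 TPM, with replicates 1 and 3 above replicates 2 and 4, as for *Thbs4*.

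Perichondrial and fibroblast genes were abundant and split the libraries. All 15 exceeded 1 TPM in every library, and their summed level was 6575, 3942, 7118 and 4208 TPM. *Col1a1*, the main chain of type I collagen, stood at 1544, 793, 1483 and 856 TPM, and *Col3a1*, of type III collagen, at 1562, 880.1, 1791 and 944 TPM. *Postn*, periostin of the fibrous sheath, stood at 796, 367, 984 and 375 TPM, and *Tnmd*, tenomodulin of tendon and ligament, at 149, 79.1, 217 and 91.1 TPM. In each of these 4 genes replicates 1 and 3 were above replicates 2 and 4 without overlap. The same order held for 10 of the 15 genes, where the background was 14.2%, and replicate 3 was the highest library for 11, where the background was 22.6%. That count fell to 8 when the libraries were scaled by median ratios. *Dcn*, the small proteoglycan decorin, had this order with a range of only 1.13-fold. *Pdgfra*, the receptor for platelet-derived growth factor on mesenchymal cells, and *Fbln2*, a fibulin of basement membranes, did not, and were highest in replicate 2. The ratio of *Col2a1* to *Col1a1* was 39.9, 77.5, 32.3 and 70.3. The part of the perichondrial level in the values of other genes was not tested.

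Markers of other cells ranged from abundant to listed at 0. Haemoglobin messages were present in all libraries and were uneven: *Hbb-bs*, a beta-globin, was at 314, 279, 598 and 852 TPM, and *Hba-a2*, an alpha-globin, at 264, 242, 484 and 764 TPM. These genes have near-identical copies in the genome, between which reads can be split. Replicate 4 was the highest library for all 5 erythroid genes with a mean of 1 TPM or more, where the background was 26.3%. Among them *Alas2*, the haem synthesis enzyme of red cells, was at 0.988, 2.29, 4.01 and 5.95 TPM. The ratio of *Hba-a2* to *Hbb-bs* was 0.854 ± 0.0376 across the libraries. Other genes of red cell precursors were close to 0: *Klf1* was at most 0.0616 TPM and *Epor* at most 0.0968 TPM.

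Genes of white cells were low. No neutrophil, B cell, T and NK cell or mast cell gene reached 1 TPM in all 4 libraries, of 10, 8, 8 and 6 genes. Their summed levels were 2.76 to 6.99, 1.99 to 3.76, 1.36 to 3.902 and 0.915 to 2.95 TPM. *Nkg7*, *Ncr1* and *Fcer1a*, which mark natural killer cells and mast cells, were listed at 0 throughout. Of the 10 macrophage and monocyte genes 3 exceeded 1 TPM in every library, led by *Cd68*, a lysosomal protein, at 20.01, 37.0, 29.6 and 29.5 TPM and *Cd14*, a lipopolysaccharide receptor, at 13.5, 21.4, 15.0 and 17.7 TPM. The complement genes *C1qa* and *C1qb*, strong markers of tissue macrophages, were at most 0.107 TPM, their partner *C1qc* was listed at 0, and *Csf1r*, the macrophage growth factor receptor, was at 0.492, 0.847, 1.08 and 0.979 TPM. Osteoclast genes gave a mixed picture: *Ctsk*, a collagen-degrading protease, was at 32.8, 19.3, 43.6 and 25.3 TPM and *Mmp9* at 20.7, 29.8, 22.7 and 13.9 TPM, whereas *Calcr*, *Dcstamp* and *Oscar* had means under 0.1 TPM. Platelet genes were low as well, with *Itga2b*, an integrin chain of platelets, at 5.71, 8.65, 8.87 and 6.55 TPM and *Pf4*, a platelet chemokine, at most 0.812 TPM. Genes of bone cells were low. *Bglap*, osteocalcin, was at 9.09, 5.61, 4.56 and 1.35 TPM, *Sp7*, the osteoblast factor osterix, at 1.83, 1.46, 1.83 and 1.45 TPM, and *Sost*, the sclerostin of osteocytes, at most 0.0400 TPM. *Bglap* shares sequence with *Bglap2* and *Bglap3*, so its own level is uncertain.

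The vessel and muscle lists summed to far less than the 6 cartilage markers, most of whose sum is *Col2a1*. Single members overlapped with single cartilage markers: *Tagln* and *Cspg4* were above *Matn1*, the lowest of the 6, in every library. Endothelial genes summed to 26.9, 34.2, 61.4 and 51.2 TPM. *Pecam1*, an adhesion molecule of endothelium, was at 2.38, 3.83, 9.25 and 4.28 TPM, and *Cdh5*, the cadherin of endothelial junctions, at 1.18, 3.72, 6.80 and 3.79 TPM. Replicate 3 was the highest and replicate 1 the lowest for both. Replicate 1 was the lowest library for 6 of the 8 endothelial genes with a mean of 1 TPM or more and for 8 of the 9 pericyte and smooth muscle genes, where the background was 41.2%. The 9 pericyte and smooth muscle genes summed to 143, 232, 195 and 186 TPM. They were led by *Tagln*, the actin-binding protein transgelin, at 41.2, 73.0, 69.5 and 58.1 TPM. *Cspg4*, the NG2 proteoglycan, listed here as a pericyte gene, was at 38.7, 80.8, 49.6 and 58.3 TPM. Its order of libraries was also that of *Acan* and *Matn1*, and which cells its message came from was not tested. *Acta2*, smooth muscle actin, was at 35.1, 41.5, 30.3 and 30.7 TPM, and *Rgs5*, a pericyte gene, at 5.20, 7.37, 18.1 and 7.50 TPM. *Tnnt3*, a fast muscle troponin, was at 73.1, 40.4, 58.7 and 65.4 TPM and led the skeletal muscle list, while *Ckm*, *Pvalb* and *Myh4*, which are prominent in mature muscle, were at most 0.212 TPM. *Myod1*, the myogenic transcription factor, was at 6.98, 15.0, 7.602 and 10.8 TPM. *Fabp4*, a fatty acid carrier of adipocytes and endothelium, was at 27.2, 40.01, 66.3 and 49.9 TPM, while *Adipoq* was at most 0.236 TPM and *Cfd* was listed at 0. *S100b*, which is expressed by Schwann cells and also by chondrocytes, was at 66.2, 56.5, 58.8 and 60.02 TPM, and *Sox10*, which is not a chondrocyte gene, was at most 0.326 TPM. The neuronal gene *Snap25* was listed at 0. *Epcam*, an epithelial adhesion molecule, was at 9.81, 17.7, 19.4 and 17.8 TPM. The 5 mesothelial genes summed to 0.542 to 0.834 TPM.

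**Figure D3:**
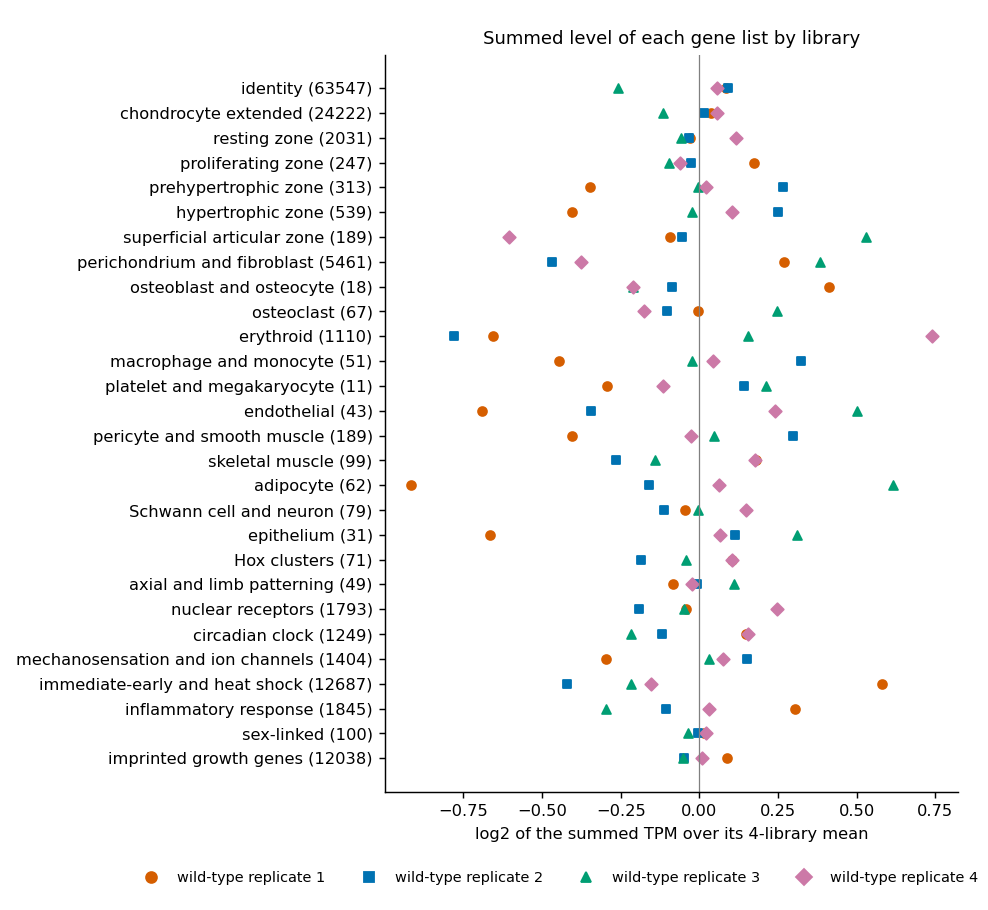
Summed TPM of each gene list in each wild-type library, as log2 of its ratio to the 4-library mean, for lists with a mean sum of at least 10 TPM (the mean sum in TPM is in brackets). Replicates 1 and 3 lay to the right and replicates 2 and 4 to the left for the perichondrial list, replicate 4 was farthest right for the erythroid list, and replicate 1 was farthest right for the immediate-early list.

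Immediate-early and heat shock genes, which respond within minutes to handling, growth factors or heat, were among the more abundant genes in all 4 libraries. All 15 exceeded 100 TPM in every library, and they summed to 18957, 9483, 10906 and 11401 TPM. *Atf3*, a stress-induced transcription factor, was at 3745, 1674, 2127 and 2310.1 TPM, and *Fos* and *Jun*, which pair as the AP-1 factor, were at 2761, 951, 1418 and 1541 TPM and 1595, 589, 838 and 839 TPM. *Egr1*, a growth-factor-induced zinc finger factor, was at 2152, 1602, 1556 and 1753 TPM. *Zfp36*, which destabilises inflammatory messages, was at 1557, 688, 742 and 894 TPM. *Dnajb1*, a co-chaperone induced by heat shock, was at 562, 177, 206 and 161 TPM, 3.50 times as high in replicate 1 as in the lowest library. All 15 genes were highest in replicate 1, where the background was 23.1%. Other chaperones outside the list had the same high library: *Hspa8*, the constitutive HSP70, was at 5747, 3539, 3875 and 3108 TPM and *Hsp90aa1*, the inducible HSP90, at 3356, 1488, 1764 and 1437 TPM. The tissue of all 4 libraries was digested with collagenase, and no undigested cartilage was analysed here, so the level before digestion is unknown.

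*Hspa1b* and *Hspa1a*, the inducible HSP70 genes, were at 1257, 842, 823 and 595 TPM and 794, 475, 484 and 393 TPM. They are near-identical neighbours between which reads can be split. Their promoters were searched for GAANNTTC, the core of the element bound by heat shock factors, which reads the same on both strands. One promoter is shown, at chr17:34959189-34959488 on the minus strand (RefSeq, GRCm38.p6), from 250 bases before to 50 bases after the start, with the motif in capitals.
Hspa1b promoter: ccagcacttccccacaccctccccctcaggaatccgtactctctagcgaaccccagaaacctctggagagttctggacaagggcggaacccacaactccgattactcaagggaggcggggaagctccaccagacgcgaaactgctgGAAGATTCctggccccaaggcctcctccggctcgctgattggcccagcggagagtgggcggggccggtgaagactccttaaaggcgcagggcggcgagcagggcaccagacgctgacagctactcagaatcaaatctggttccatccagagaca
The match began at position -104 relative to the start site, and *Hspa1a* held a match at the same position, in a promoter identical at 296 of 300 positions. Of 15 promoters listed for 13 genes of the list, 5 held the motif, in *Hspa1a*, *Hspa1b*, *Hsph1* and *Jun*. Of all 32851 promoters, 7.86% held it. *Hsph1*, an HSP70 nucleotide exchange factor, was at 1153, 609, 587 and 435 TPM.

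Of 16 inflammatory genes, 13 exceeded 1 TPM in all libraries. *Cxcl1*, a neutrophil-attracting chemokine, was by far the highest at 1579, 845, 779 and 1016 TPM, followed by *Cxcl2*, its close relative, at 279, 207, 190.4 and 210.4 TPM, and *Ptgs2*, the inducible prostaglandin synthase, at 154, 293, 204 and 248 TPM. Replicate 1 was the highest library for *Cxcl1* and *Cxcl2* and the lowest for *Ptgs2*. *Il6* had a mean of 37.7 ± 8.56 TPM, whereas *Il1b* was at most 0.362 TPM. *Nos2*, *Lcn2*, *Mmp3* and *C3*, which chondrocytes raise under inflammatory cytokines, were present at means of 6.24, 8.87, 84.3 and 30.9 TPM.

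The *Hox* genes, whose combinations mark position along the body axis, were led by the A and C clusters in all 4 libraries. Of 39 genes 9 exceeded 1 TPM in every library, 3 from the C cluster and 6 from the A cluster. *Hoxc8*, a gene of the thoracic region, was the highest at 24.7, 27.0, 23.2 and 29.9 TPM. Next by mean came *Hoxa7* at 7.97, 5.49, 7.93 and 7.54 TPM, *Hoxc6* at 9.64, 5.54, 6.19 and 7.10 TPM and *Hoxa3* at 6.47, 5.21, 7.10 and 7.33 TPM. The order among these was not the same in all libraries, and their ranges overlapped. *Hoxa5* and *Hoxa6* had means of 5.28 ± 0.983 and 3.48 ± 0.806 TPM. *Hoxa2*, *Hoxa4* and *Hoxc4* had means of 2.25 ± 0.582, 1.40 ± 0.165 and 1.33 ± 0.340 TPM. Replicate 2 was the lowest library for 10 of the 12 genes with a mean of 1 TPM or more, where the background was 24.1%. By cluster the summed level was 38.3 ± 3.21 TPM for C and 27.5 ± 4.34 TPM for A, against 3.81 ± 0.842 TPM for B and 1.47 ± 0.507 TPM for D. By paralogue group it was 27.2 ± 2.66 TPM for group 8, 1.98 ± 0.249 TPM for group 9 and 0.311 ± 0.0694 TPM for group 10. Groups 10 to 13, which pattern lumbar, sacral and tail segments, had no gene at 1 TPM in all libraries. *Hoxc12* was the highest of these at 0.997, 2.01, 0.560 and 0.847 TPM. *Hoxa11* and *Hoxd12* were listed at 0 throughout. *Hoxb8* and *Hoxd8*, the paralogues of *Hoxc8*, were at 0.0934, 0.0850, 0.183 and 0.105 TPM and 1.34, 0.585, 0.950 and 0.603 TPM.

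**Figure D4:**
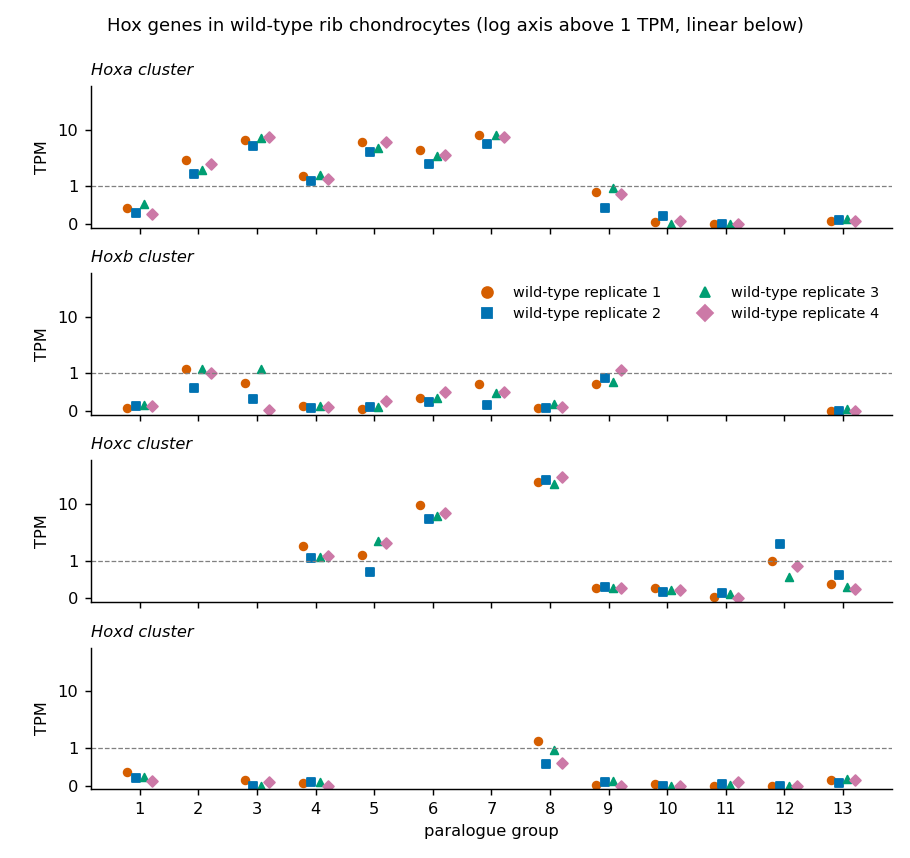
Level in TPM of the 39 *Hox* genes by cluster (panels) and paralogue group (horizontal axis), with 1 point per wild-type library and a dashed line at 1 TPM; the vertical axis is logarithmic above 1 TPM and linear below it. *Hoxc8* was the highest in every library, and in groups 4 to 7 the A and C genes lay above the B and D genes of the same group.

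Other patterning genes were low. Of 25 axial and limb genes, 7 exceeded 1 TPM in all libraries, led by *Trps1*, a GATA-type repressor of growth plate cells, at 12.7, 15.95, 12.2 and 13.5 TPM, and by *Foxc2* and *Foxc1*, forkhead factors of the paraxial skeleton, with means of 8.19 ± 0.881 and 6.02 ± 0.384 TPM. *Meox1* and *Meox2*, homeobox genes of the somite, were at 2.51, 1.996, 5.73 and 1.86 TPM and 2.74, 1.85, 4.46 and 1.58 TPM, highest in replicate 3 for both. *Pax1*, *Pax9* and *Nkx3-2*, early factors of the sclerotome from which ribs arise, stayed below 0.4 TPM at means of 0.240, 0.280 and 0.180 TPM. The limb genes *Tbx5*, *Tbx4* and *Pitx1* had means of 0.159, 0.0745 and 0.129 TPM.

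Of 49 nuclear receptor genes, 25 exceeded 1 TPM in all libraries. The orphan receptors of the NR4A family, which are themselves early-response genes, led the list: *Nr4a2* was at 405, 581, 707 and 889 TPM and *Nr4a1* at 682, 341, 389.7 and 478 TPM. Replicate 1 was the lowest library for *Nr4a2* and the highest for *Nr4a1*, while the other three libraries had the same order for both. *Rarg*, the retinoic acid receptor of cartilage, was at 109, 61.7, 77.0 and 84.3 TPM, above *Rara*, with a mean of 16.8 ± 2.33 TPM, and *Rarb*, with 0.214 ± 0.151 TPM. *Thra*, a thyroid hormone receptor, was at 56.4, 68.9, 68.0 and 69.7 TPM, and *Thrb* had a mean of 5.03 ± 2.21 TPM. *Nr3c1*, the glucocorticoid receptor, was at 10.1, 12.8, 12.1 and 11.7 TPM and *Vdr*, the vitamin D receptor, at 11.2, 10.8, 10.2 and 13.3 TPM. Of the sex steroid receptors, *Esr1* was at 3.29, 4.53, 3.69 and 4.11 TPM, while *Esr2* and *Pgr* were at most 0.0918 and 0.0340 TPM. *Pparg*, the adipogenic receptor, was uneven at 5.06, 15.3, 28.8 and 14.5 TPM, lowest in replicate 1 and highest in replicate 3, as was *Fabp4*. *Nr1i3*, *Nr0b1* and *Nr0b2* were listed at 0. Replicate 1 was the lowest library for 15 of the 26 receptor genes with a mean of 1 TPM or more, against the background of 41.2%.

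Clock genes were well represented, with 18 of 19 above 1 TPM in all libraries. *Bhlhe40*, a repressor tied to the clock, was at 484, 366, 368 and 402 TPM. Several repressors were high: *Nr1d1* (REV-ERB alpha) was at 165, 166, 141 and 206 TPM, *Per2* at 168, 160.3, 138 and 211 TPM, *Per1* at 144, 85.4, 101 and 143 TPM and *Cry1* at 102, 92.3, 67.5 and 131 TPM. The activators were low: *Arntl* (BMAL1) was at 6.04, 8.79, 9.08 and 7.57 TPM and *Clock* at 4.66, 6.53, 6.19 and 5.89 TPM. *Nr1d1* was above *Arntl* in every library. The labels give no time of day for the dissections.

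All 24 genes of mechanosensation, ion transport and phosphate handling exceeded 1 TPM in every library. *Gja1*, the gap junction protein connexin 43, was at 251, 507, 415 and 477 TPM, and *Piezo1*, a stretch-gated channel, at 138, 233, 185 and 193 TPM. *Piezo2*, its relative, had a mean of 10.1 ± 1.33 TPM, and *Trpv4*, an osmotically gated calcium channel whose mutations cause skeletal dysplasias, was at 32.9, 43.7, 33.0 and 39.99 TPM. *Slc20a1* and *Slc20a2*, phosphate transporters, had means of 255 ± 17.6 and 7.28 ± 2.28 TPM. *Ank*, which exports pyrophosphate and so restrains mineral, was at 17.4, 42.1, 28.0 and 31.1 TPM, and *Enpp1*, which makes pyrophosphate outside the cell, at 44.4, 59.2, 43.8 and 45.5 TPM. Of the 24 genes 16 were lowest in replicate 1, against the background of 41.2%. That count fell to 11, against 34.4%, when the libraries were scaled by median ratios. *Ift88*, needed to build the primary cilium, and *Pkd2*, a ciliary channel, had means of 8.83 ± 0.502 and 21.3 ± 2.60 TPM.

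Imprinted growth genes were abundant. All 18 exceeded 1 TPM in every library, and their median SD of log2(TPM + 1) was 0.120, against 0.165 for protein-coding genes at 100 to 200 TPM, the level of the list's median gene. *H19*, the maternally expressed non-coding RNA of the *Igf2* locus, was at 4057, 3508, 3491 and 3872 TPM, and *Igf2*, the paternally expressed growth factor, at 3469, 2990.1, 2852 and 3283 TPM. Their ratio, *Igf2* to *H19*, was 0.843 ± 0.0177. *Meg3*, the long non-coding RNA of the *Dlk1* region, was at 1587, 1631, 1662 and 1589 TPM, and *Dlk1* itself at 462, 466, 358 and 321 TPM. *Cdkn1c*, a growth-restraining cell cycle inhibitor, was at 192, 190.0, 207 and 202 TPM. *Mest* was the least even of them, at 345, 151, 253 and 193 TPM. Genes of the Y chromosome were expressed in all 4 libraries: *Eif2s3y* was at 46.7, 38.8, 42.3 and 49.7 TPM and *Ddx3y* at 39.8, 45.7, 39.4 and 38.8 TPM. *Xist*, the RNA that coats the inactive X chromosome of female cells, was at most 0.339 TPM.

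The replicates were close for protein-coding genes and wide apart for short genes. For the 7950 protein-coding genes with a mean of 5 TPM or more, Spearman's rho between libraries, across genes, was 0.922 to 0.954 over the 6 pairs. These correlations are across genes, which are not independent replicates. Across all 15891 genes with a mean of 1 TPM or more it was 0.839 to 0.860. The lowest value in both sets was for replicates 1 and 2. For the protein-coding set, 5.26% of genes differed at least 2-fold, on the TPM + 1 scale, between replicates 1 and 2, and 1.95% between replicates 2 and 4. The median coefficient of variation of protein-coding genes fell with level, from 27.9% at 1 to 2 TPM to 14.5% at 10 to 20 TPM and 9.88% above 1000 TPM. By biotype the median SD of log2(TPM + 1) was 0.205 for protein-coding genes, 0.293 for long non-coding RNA, 0.504 for pseudogenes and 2.05 for genes annotated as miRNA. Of the 1555 genes under 200 bases with a mean of 1 TPM or more, 77.4% were listed at 0 in at least 1 library and 664 were present in only 1. Of 11943 longer protein-coding genes 0.293% were listed at 0 in at least 1. Over all genes with a mean of 1 TPM or more the median SD was 0.240. It was 0.192 without replicate 1, and 0.222 to 0.239 when another replicate was left out instead.

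**Figure D5:**
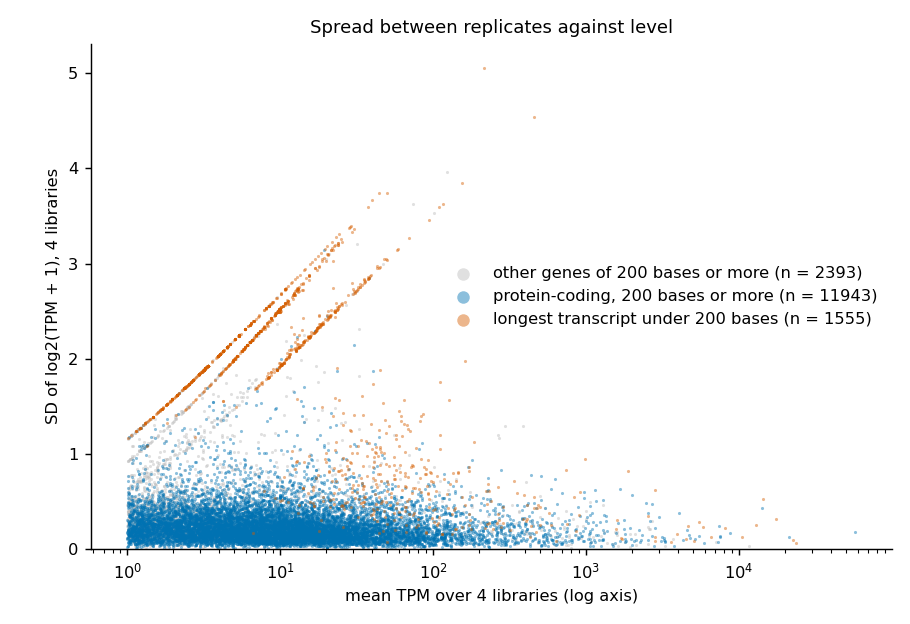
SD of log2(TPM + 1) over the 4 wild-type libraries against the mean TPM (log axis), 1 point per gene with a mean of 1 TPM or more. Genes under 200 bases (orange) form rising lines, which are genes listed at 0 in 1 or more libraries, while the cloud of protein-coding genes of 200 bases or more (blue) lies lower; the medians were 1.92 for the short genes and 0.205 for all protein-coding genes.

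The steadiest protein-coding genes with a mean of 5 TPM or more were *Ccdc88a*, an actin-binding signalling protein, at 20.1, 20.2, 20.1 and 20.5 TPM, and *Metap1d*, a mitochondrial methionine aminopeptidase, at 20.3, 20.02, 20.2 and 20.5 TPM. *Pelp1*, *Kif1c*, *Rb1cc1*, *Rps19bp1*, *Mcrip1*, *U2af2*, *Gm49369* and *2310022B05Rik* completed the 10 lowest, all with an SD of log2(TPM + 1) of at most 0.0185. Of the 20 least even, 12 had a longest transcript under 250 bases and another 5 shared at least 50% of their 31-base words with another gene. Among the latter, *Eno1b* was at 45.4, 55.6, 51.1 and 0 TPM, and 89.0% of its words were shared, most of them with *Eno1*, a glycolytic enolase. *Gm14440* and *Zfp969*, of a cluster of near-identical zinc finger genes on chromosome 2, shared all their words, and were at 1.93, 76.3, 2.08 and 1.04 TPM and 38.98, 15.5, 2.2e-05 and 12.8 TPM. *Prrt2* and *Gm42416* shared 87.4% and 99.1% of theirs. Levels of these genes are uncertain. The 3 that were long and shared few words were *Zfp618*, a zinc finger gene, at 0.917, 0.593, 10.7 and 39.2 TPM, *Pianp*, at 21.4, 1.60, 17.0 and 0.395 TPM, and *Prss36*, a secreted serine protease, at 76.5, 53.8, 28.9 and 3.24 TPM. *Zfp618* was highest in replicate 4 and the other two in replicate 1. The short genes *Gm10337*, *Gm37419* and *Gm20538* had means of 10.1 ± 15.4, 6.50 ± 7.52 and 11.8 ± 14.1 TPM, and each was listed at 0 in at least 1 library. Of the short ones, *Snurf*, a reading frame that shares all its words with the imprinted gene *Snrpn*, was at 0, 13.9, 19.4 and 34.4 TPM. *Gm17387*, of 72 bases, was at 0 in 3 libraries and at 21.5 TPM in replicate 4, which is the 1 step given above. Of the 100 least even, 61 were at least 500 bases long with under 10% of words shared. *Adamts2*, which trims the ends of fibrillar procollagens, was one of these, at 19.8, 2.43, 26.8 and 6.13 TPM, and *Stab1*, a scavenger receptor, was another, at 0.892, 6.601, 15.4 and 11.3 TPM.

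Genes that set a single library apart were of both kinds. In replicate 1 the 5 protein-coding genes farthest from the nearest other library were *Snurf*, *Gm11027*, *Pde6h*, *Coq4* and *Orc1*. *Coq4*, of coenzyme Q synthesis, was above the others, at 16.1, 1.47, 1.23 and 1.69 TPM, and *Orc1*, of the replication origin complex, was below them, at 0.887, 14.9, 7.77 and 9.43 TPM. In replicate 2 they were *Gm10197*, *Gm17545*, *Gm14440*, *Gm20390* and *Prrt2*. In replicate 3 they were *Gm26897*, *Gm17604*, *Zfp969*, *Zbtb18* and *Ece1*. *Zbtb18*, a repressor, was at 2.02, 2.39, 27.3 and 5.53 TPM, and *Ece1*, the endothelin-converting enzyme, at 24.8, 43.4, 4.34 and 19.95 TPM. In replicate 4 they were *Eno1b*, *Gm17387*, *Gm21961*, *Gm10974* and *Gm42416*. Of these 20, only *Pde6h*, *Coq4*, *Orc1*, *Zbtb18* and *Ece1* were over 250 bases and shared under 10% of their words.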

How the data were processed

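Stranded poly(A) libraries were read as single-end reads of 75 bases. The authors mapped the reads to the mm10 mouse transcriptome with Salmon and deposited 1 file per library with TPM per gene; the submitters' notes also name FastQC 0.11.7 and DESeq2, and the Salmon version is not given in the sources used here. Each file held 52865 lines for 52325 gene identifiers, and 540 repeated lines were dropped. TPM carry no depth, so no counting interval was given.

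Groups came from the sample titles, and only the 4 wild-type libraries were used. With 1 group no comparison between groups was tested; Dixon's criterion was applied to single values within the group. Biotypes, lengths and coordinates were taken from GENCODE M21 (GRCm38), which matched all but 105 identifiers, together 142 TPM per library. A gene's length is that of its longest transcript. Shares, summed TPM of 33 gene lists, SD of log2(TPM + 1), coefficients of variation and Spearman's rho across genes were computed with Python 3.11.15 and pandas 2.3.3, after the spread calculation had been checked on simulated data. Sequence sharing was the share of a gene's 31-base words found in transcripts of another gene.

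The genes named were the 30 most abundant, the cartilage markers, in each list the defining genes, the members of highest mean and those at 0, the 20 least and 10 most even protein-coding genes with a mean of 5 TPM or more, and the 5 that set each library apart. *Hspa8*, *Hsp90aa1*, *Fn1*, *Neat1*, *Adamts2* and *Stab1* were named after their values were seen. The members and lists were chosen with earlier results of these data known, and the patterns of a library being highest or lowest were noticed in the data. Alternatives were other detection thresholds, rescaling without mitochondrial or short genes, median-ratio scaling, other pseudocounts and filters, and leaving out each replicate in turn. Weighting by length, the set of protein-coding genes of 500 bases or more and the list counts under other scalings were added after seeing the data. A few genes chosen by these rules, and 1 sequence, are not reported here.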

Additional observations from a re-analysis of the deposited data

Results flagged for a closer look

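Among 245 values examined, of which 200 were levels of single genes, 25 had a library whose gap to the nearest other divided by the range exceeded Dixon's 95% critical value for 4 samples. Chance flags about 1 in 20 groups, but the 25 cannot be read against that rate: genes of a library are not independent, *Coq4*, *Gm14440*, *Gm17387* and *Zbtb18* were named for a large spread or because 1 library stood apart, and *Neat1* and *Hsp90aa1* were named after their values were seen. Of the 25, 11 were in replicate 1, 4 in replicate 2, 8 in replicate 3 and 2 in replicate 4, and the cause of none was tested. *C1qa*, *Xist*, *Tbx4* and *Tbx5* were flagged although they stayed below the detection threshold of 0.5 TPM in every library.

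In replicate 1, *Dnajb1* was at 562 TPM against 161 to 206 in the others, *Hsp90aa1* at 3356 against 1437 to 1764 and *Coq4* at 16.1 against 1.23 to 1.69. *Ifrd1* was at 5375, *Neat1* at 1109.9, *Hoxc4* at 1.84, *Xist* at 0.339 and *C1qa* at 0.107 TPM, all above the other libraries. The osteoblast and osteocyte list summed to 23.3 TPM there against 15.1 to 16.5. *Sox6*, at 49.9 TPM, and *Thra*, at 56.4 TPM, were below the others.

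In replicate 2, *Gm14440* was at 76.3 TPM against 1.04 to 2.08, *Enpp1* at 59.2 against 43.8 to 45.5, *Ddx3y* at 45.7 against 38.8 to 39.8 and *Tbx4* at 0.0323 against 0.0857 to 0.0913.

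In replicate 3 the fibrillar collagen genes of cartilage were low: *Col2a1* was at 47894 TPM against 60174 to 61630.1, *Col11a2* at 4746 against 5685 to 5760.2 and *Col9a2*, whose type IX product coats the fibrils, at 3016 against 3360 to 3420. The 6 cartilage markers, most of whose sum is *Col2a1*, summed to 53100 TPM against 66106 to 67625. *Tbx5* was low as well, at 0.0811 TPM. *Alpl* was high in replicate 3, at 16.4 TPM, as were *Meox1*, at 5.73 TPM, and *Zbtb18*, at 27.3 TPM.

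In replicate 4 the resting zone list summed to 2203 TPM against 1949 to 1988, and *Gm17387*, which is 72 bases long, was at 21.5 TPM and at 0 in the others.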

How the results depend on the processing

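TPM hold no depth, and the 4 libraries limit precision to the spread given beside each value. Shares by biotype depended most on the weight of short genes. With genes under 200 bases left out, protein-coding genes held 83.9%, pseudogenes 11.7%, miRNA genes 0.000632%, collagens 10.7% and ribosomal proteins 10.03%, and the 10, 100 and 1000 most abundant genes held 19.2%, 44.6% and 76.5%. With TPM weighted by the longest transcript the shares were 92.6%, 2.24%, 0.341%, 19.5% and 5.68% for protein-coding genes, pseudogenes, miRNA genes, collagens and ribosomal proteins, and with the median transcript length they were 89.2%, 5.28%, 0.845%, 11.2% and 5.47%. Without mitochondrially encoded genes, pseudogenes held 17.7% and ribosomal proteins 8.31%, and the 10, 100 and 1000 most abundant genes held 20.2%, 47.9% and 77.4%. Each alternative changes the total or the weight of each gene, and the most abundant genes were ranked anew in each. The part that each of these had in the shifts was not tested.

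The median SD of log2(TPM + 1) over genes with a mean of 1 TPM or more was 0.240 with all 4 libraries. It was 0.287 with a pseudocount of 0.1 and 0.0785 with no filter on the mean. When each replicate was left out in turn it ranged from 0.192, without replicate 1, to 0.239. The mean Spearman's rho between libraries, across genes with a mean of 1 TPM or more, was 0.848. It was 0.871 with no filter, 0.862 for a mean of at least 5 TPM, 0.960 for protein-coding genes and 0.964 for those of 500 bases or more. When each replicate was left out it ranged from 0.839, without replicate 3, to 0.850. With no filter the median SD was taken over all 52325 identifiers, against 15891 genes with the filter. Genes near 0 TPM in all libraries have almost no spread on the log2(TPM + 1) scale. The causes of the differences were otherwise not tested.

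The 11 counts of list members that were highest or lowest in a library, or had replicates 1 and 3 above 2 and 4, did not change when mitochondrial genes were left out. Under median-ratio scaling, whose factors for replicates 1 to 4 were 1.041, 0.983, 0.988 and 0.972, they were 15 of 15 immediate-early genes highest in replicate 1 against a background of 29.9%, 8 of 10 proliferating zone genes, 7 of 9 pericyte genes lowest in replicate 1 against 34.4%, 6 of 8 endothelial genes, 14 of 26 nuclear receptors and 11 of 24 mechanosensation genes; the last count, 16 as deposited, moved with the scaling. For the order with replicates 1 and 3 above 2 and 4 they were 11 of 15 perichondrial genes and 7 of 10 proliferating zone genes against 17.8%. The 5 erythroid genes highest in replicate 4 and the 10 *Hox* genes lowest in replicate 2 kept their counts, against 22% and 25.8%, while the perichondrial genes highest in replicate 3 fell from 11 to 8 of 15, against 21.5%. No paired analysis was possible because all libraries belong to 1 group.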
